A study of Rattus norvegicus with 23 samples.

Results

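Endothelial cells of the liver sinusoid carry a set of marker genes, and 42 such genes were followed here through cultured rat liver cells, namely hepatocytes, sinusoidal endothelial cells (LSECs) and the resident macrophages of the liver, Kupffer cells (KCs). A gene was measured where an array probe set names that gene and no other, and where several did, the one that was highest on average across the 23 arrays was taken. This left 39 of the 42 genes, among 14218 genes measured in all. No probe set of their own is named here for Cd34, Robo4 or Ednrb. Of the 39 genes, 22 have 1 probe set and 17 have several.

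Affymetrix arrays were run on 8 groups of rat liver cells. Hepatocytes came from hepatocyte monolayers (HM), from collagen sandwiches (CS), in which the cells lie between layers of collagen, from 3DHL, a 3D model of hepatocytes with LSECs, and from 3DHLK, which also holds KCs. LSECs came from 3DHL and 3DHLK and KCs from 3DHLK. All of these were collected at day 12, and a last group held KCs at day 3, as monolayers before they were placed in a model. Per the paper, KCs were kept in a DMEM medium with serum and the 3D models in hepatocyte medium. Comparisons with KCs at day 3 therefore cannot tell day, culture format and medium apart. Every group had 3 arrays except the KCs of 3DHLK, which had 2.

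In the 3D models the LSECs were separated from the hepatocytes beneath them by a polyelectrolyte multilayer, a thin film of charged polymers. Hepatocytes and LSECs were isolated from female Lewis rats, and the KCs were bought as frozen rat cells. No group carried an altered gene or received a test agent, and no source used here gives the age of the rats. The cell types of the models were taken apart with magnetic beads that carry the SE-1 antibody for LSECs and an antibody to CD163 for KCs. The SE-1 antigen is the Fc receptor CD32b, the product of Fcgr2b, so that gene is the gate of the LSEC fraction. Nothing in the labels says that replicates were separate cultures or animals. The p-values therefore measure only the spread between these arrays, which may be technical.

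LSECs form a fenestrated wall without a continuous basement membrane, and they clear waste molecules from blood through scavenger and Fc receptors such as stabilin-1, stabilin-2 and CD32b. Their identity depends on VEGF signals from hepatocytes, on nitric oxide and on transcription factors such as Gata4, and it is known to fade in culture. Capillary endothelium of other organs carries another set, with von Willebrand factor, CD31 and tight junction proteins. Several markers are shared with other liver cells. Macrophages can carry stabilin-1, Fc receptors and CD31, and activated stellate cells can carry endoglin.

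The values are log2 expression values, so a difference of 1 is a factor of 2 in signal. Array medians lay between 7.41 and 7.53. Replicates correlated at 0.987 to 0.998 across probe sets, except for KCs at day 3 with 0.942 to 0.969. The 27 hepatocyte markers averaged 12.65 and 12.89 in the LSECs of 3DHL and 3DHLK and 12.13 in the KCs of 3DHLK. They averaged 12.40 to 13.09 in the 4 hepatocyte groups and 7.55 in KCs at day 3. The bead fractions thus held hepatocyte transcripts at the level of hepatocytes, and their part in the results was not tested. In such fractions fewer cells of a type and less RNA per cell cannot be told apart.

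The file holds no detection calls, so a reference for background was taken from 54 genes of tissues that these cultures do not hold, such as germ cell, neuronal and cardiac genes. A gene was read as near background in a group where, on every array of it, its value was at or below the 95th percentile of these 54 genes. That ceiling lay between 7.48 and 8.45 on the 23 arrays, and between 8.11 and 8.39 on the 6 LSEC arrays. It is a high one, since array medians were 7.41 to 7.53, and not all of the 54 genes need be silent here. By this measure 31 of the 39 endothelial genes (79.5%) were near background in both LSEC groups, where 44.3% of all genes were. With the 30th percentile of all genes on an array as the limit the count was 20. The count was 32 in LSECs of 3DHL, 31 in LSECs of 3DHLK and 30 in KCs of 3DHLK, against 47.2, 45.7 and 50% of all genes. In hepatocytes 24 members were near background in HM, 26 in CS, 27 in 3DHL and 25 in 3DHLK, beside 36.6, 40, 37.5 and 33.9% of all genes. KCs at day 3 had the fewest, with 22 members beside 42.4% of all genes. Probe sets differ in how strongly they bind, so a place near background is a description of the signal and not proof that the transcript was missing.

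A group of 15 members (38.5%) was near background in all 8 groups, as were 27.1% of all genes. It holds Stab2, Lyve1 and Kdr of the sinusoid, Vwf and Nos3 of vascular endothelium at large, the junction and surface genes Emcn, Cldn5, Icam2, Plvap and Mmrn2, the transcription factors Erg and Sox18, the Wnt amplifier Rspo3 and the selectins Selp and Sele. Lyve1 stayed under the ceiling in both KC groups but stood out there. Its mean was 7.94 in KCs of 3DHLK and 7.72 in KCs at day 3, against 5.46 to 5.88 in the other groups. A further 6 (15.4%) were near background in every day 12 group but not in KCs at day 3, namely Stab1, Tie1, Pecam1, Fcgr2b, Wnt2 and Calcrl, where 4.01% of all genes were. Fcgr2b is among these 6 by the ceiling and not by its level. Its mean was 8.03 in KCs of 3DHLK and 7.57 in KCs at day 3. The ceiling was 8.41 and 8.30 on the former arrays and 7.64 on replicate 1 of the latter. At the other end, Gata4, Icam1, Klf2 and Klf4 (10.3%) were near background in no group, beside 43% of all genes. In the LSEC groups these 4 and Sox17 lay above the ceiling on all 6 arrays, Edn1 on 5 of them and Egfl7 on 2, and S1pr1 lay above it on the 3 arrays of 3DHLK and on none of 3DHL. The genes by which LSECs are usually recognised were thus among those that could not be separated from background in the LSEC fractions, and the fractions are called LSECs below by their label.

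**Figure D1:**
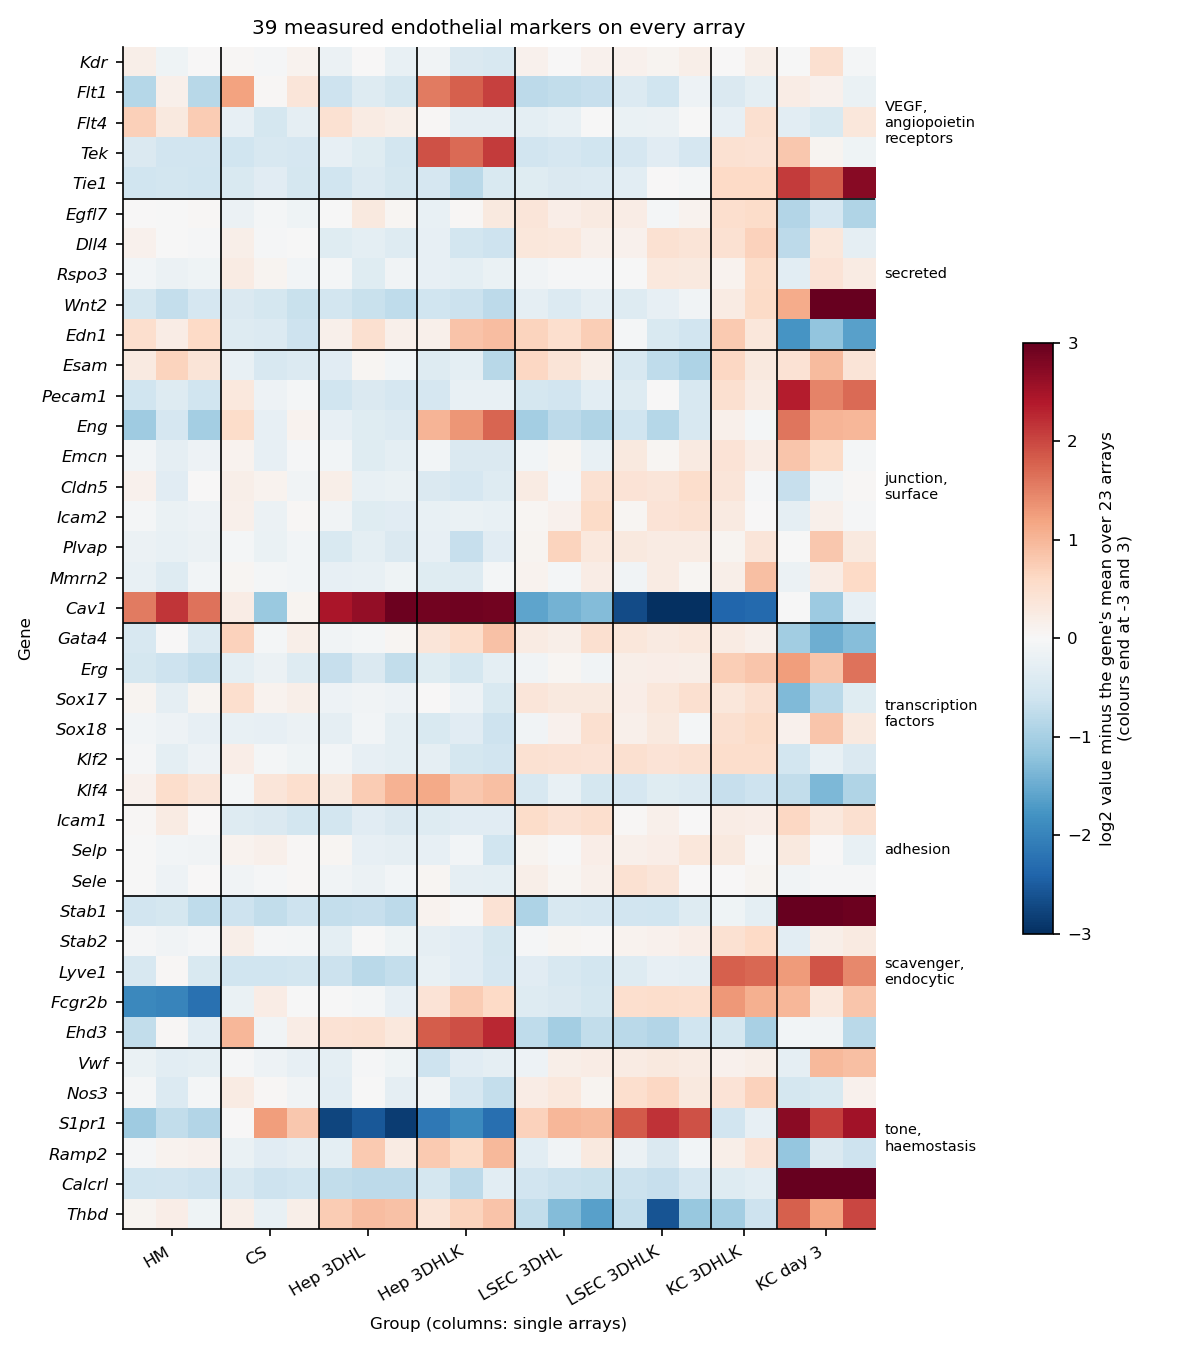
The 39 endothelial genes (rows, by role) on the 23 arrays (columns, by group), each cell the log2 value minus the gene's mean over all arrays, with colours ending at -3 and 3. The widest ranges lie in Cav1, S1pr1, Calcrl and Stab1, whereas 16 of the genes ranged over less than 1 log2 unit between group means.

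The scavenger and endocytic genes show how little of this set the LSEC arrays held. Stab2, the hyaluronan scavenger receptor that defines the sinusoidal cell, read 5.81, 5.88 and 5.86 in LSECs of 3DHL and 5.94, 5.96 and 6.03 in LSECs of 3DHLK. In hepatocytes it read 5.55, 5.82 and 5.70 in 3DHL and 5.56, 5.49 and 5.32 in 3DHLK. The LSEC arrays overlapped the hepatocyte arrays in 3DHL and lay above them in 3DHLK, all of them under the ceiling. Stab1, the related scavenger receptor, read 5.99, 6.44 and 6.42 and 6.33, 6.33 and 6.52 in the LSECs of 3DHL and 3DHLK, and 7.02, 6.96 and 7.35 in hepatocytes of 3DHLK. KCs at day 3 stood far above every other group, with 10.20, 10.004 and 9.86. Lyve1, the hyaluronan receptor of lymphatic and sinusoidal endothelium, read 5.84, 5.69 and 5.63 and 5.79, 5.94 and 5.90 in the LSEC groups and 7.98 and 7.91 in KCs of 3DHLK. It was thus higher on both KC arrays than on any LSEC array. Fcgr2b, the antigen of the sort, read 6.46, 6.42 and 6.33 in LSECs of 3DHL, 7.35, 7.38 and 7.36 in LSECs of 3DHLK and 8.16 and 7.91 in KCs of 3DHLK. In hepatocytes it read 4.92, 4.88 and 4.61 in HM, 6.64, 7.06 and 6.85 in CS, 6.83, 6.80 and 6.60 in 3DHL and 7.26, 7.60 and 7.45 in 3DHLK. The LSEC fraction of 3DHL therefore lay below the hepatocytes of the same model in every array of this gene, and HM alone lay well below the rest.

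The vascular markers were as low. Vwf, the clotting glycoprotein that endothelium stores, read 5.58, 5.91 and 5.94 and 5.96, 6.03 and 5.96 in the LSECs of 3DHL and 3DHLK. Nos3, the endothelial nitric oxide synthase, read 6.69, 6.80 and 6.54 and 6.97, 7.08 and 6.77 there. Pecam1, which encodes the junctional protein CD31, read 5.93, 5.89 and 6.15 and 6.08, 6.48 and 5.996 there. All 3 genes stayed under the ceiling on each of the 6 LSEC arrays. Kdr, the main VEGF receptor, read 6.11, 6.004 and 6.11 and 6.12, 6.08 and 6.16, and on this probe set its group means spread over less than 1 log2 unit. Its other probe set was not flat, with means from 3.81 in HM to 6.57 in hepatocytes of 3DHLK.

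Where the members peaked was also uneven. The highest group mean fell in KCs at day 3 for 13 members, in KCs of 3DHLK for 11, in hepatocytes of 3DHLK for 9, in LSECs of 3DHLK for 4, and in HM and in LSECs of 3DHL for 1 each. The 4 that peaked in LSECs of 3DHLK were Cldn5, Icam2, Selp and Sele, and Icam1 peaked in LSECs of 3DHL. The other probe set of Icam2 peaked in KCs at day 3, with 7.82 against 4.98 in LSECs of 3DHLK, and that of Selp in KCs of 3DHLK, with 6.19 against 6.08. Over all 14218 genes, 22.4% peaked in KCs at day 3, 16.2% in KCs of 3DHLK, 12.1% in hepatocytes of 3DHLK, 13.8% in LSECs of 3DHLK, 9.13% in HM and 5.72% in LSECs of 3DHL. The median range of a member between its lowest and highest group mean was 1.31 log2 units, against 1.12 for all genes.

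**Figure D2:**
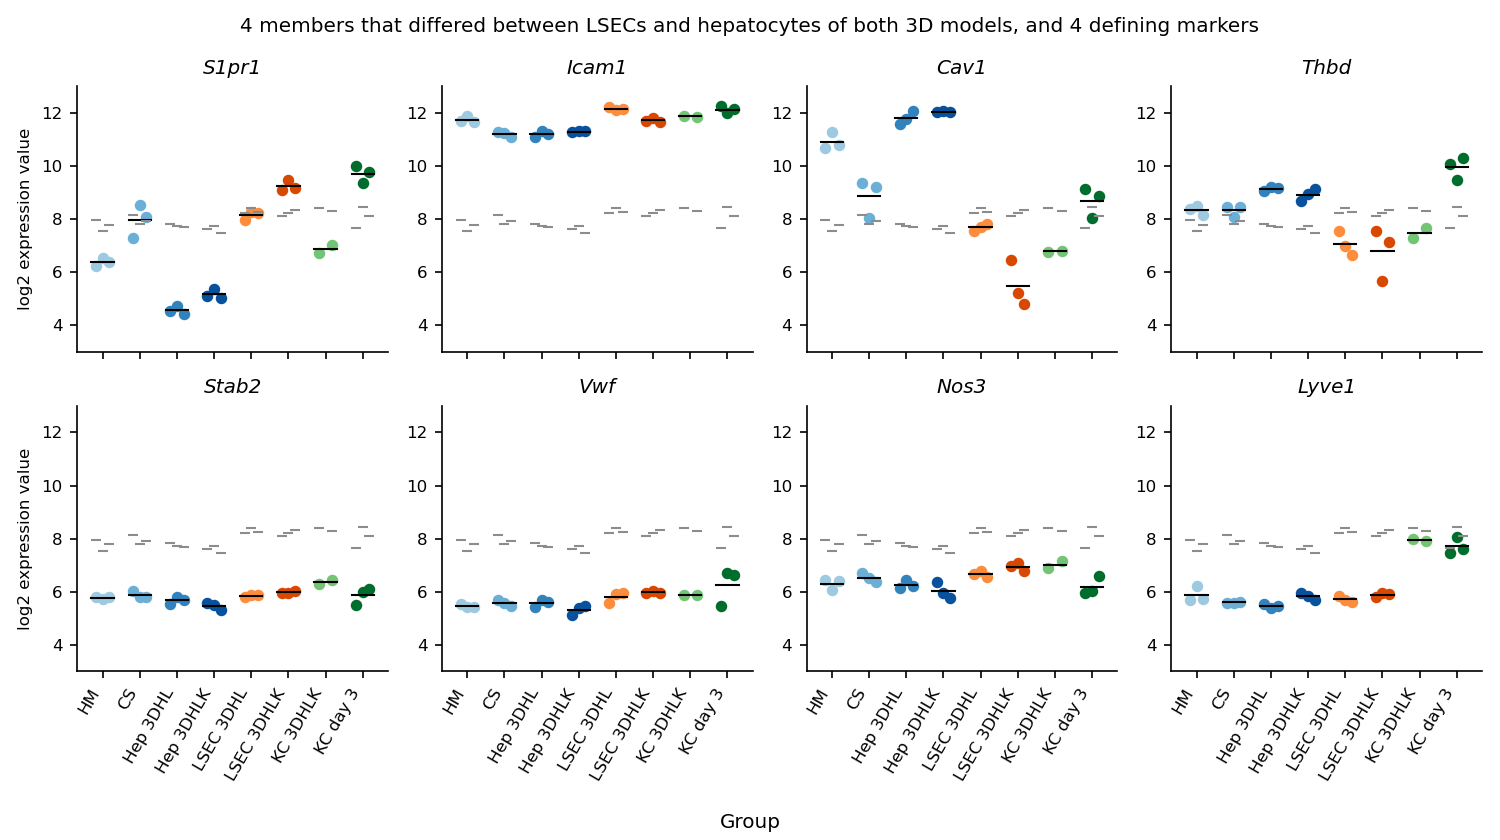
Log2 values of 8 endothelial genes by group, with a dot for each array, a black line for the group mean and a grey tick for each array's 95th percentile of the 54 absent-tissue genes. S1pr1, Icam1, Cav1 and Thbd differed between LSECs and hepatocytes of the same model by more than their spread. In hepatocytes cultured without LSECs, S1pr1 of CS and Icam1 of HM overlapped LSEC arrays. Stab2, Vwf, Nos3 and Lyve1 lay at or under the ticks in every group.

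LSECs were then compared with the hepatocytes of the same model, which asks which of these genes the bead fraction holds above its neighbours. In limma, a gene was called at an adjusted p under 0.05 over all 14218 genes. In 3DHL 9 of the 39 members were called higher in LSECs, 5 lower and 25 neither, so that 35.9% were called where 40.4% of all genes were (18.5% higher and 21.9% lower). In 3DHLK 19 were called higher, 10 lower and 10 neither, so that 74.4% were called where 60.4% of all genes were (34.7% higher and 25.7% lower). Against the mean of HM and CS, hepatocytes that had no LSECs beside them, 14 were called higher, 6 lower and 19 neither, 51.3% against 47.1% of all genes (24.8% higher and 22.3% lower). The median log2 change of the members was 0.24, 0.42 and 0.17 in these comparisons, and that of all genes 0.02, 0.11 and 0.07.

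Small rises in LSECs were also shared by many of the genes of tissues that these cultures do not hold. Single genes of this list changed much further, from -2.39 in LSECs against HM and CS to 4.77 between the KC groups. They need not all be silent here. Of the 54 absent-tissue genes, 29 (53.7%) were called higher in LSECs than in hepatocytes of 3DHL, with a median log2 change of 0.38 and a 95th percentile of 0.69. In 3DHLK 41 of the 54 (75.9%) were called higher, with a median of 0.60 and a 95th percentile of 0.90. Against HM and CS 27 of the 54 (50%) were called higher, with a median of 0.27 and a 95th percentile of 0.44. Of the members called higher, 6 of 9 in 3DHL, 16 of 19 in 3DHLK and 8 of 14 against HM and CS lay within the 5th to 95th percentile of these genes. The part of such a shift in the members' calls was not tested.

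How many members counted as higher depended on the scaling. Shares of all genes called are not given for other settings, here or below. The counts alone thus do not tell whether the members moved apart from other genes. With cyclic loess the split of higher and lower members was 6 and 6 in 3DHL, 8 and 11 in 3DHLK and 7 and 8 against HM and CS. With arrays centred on the 14 housekeeping genes it was 14 and 4 in 3DHL and, as with the deposited values, 19 and 10 in 3DHLK. With arrays centred on the absent-tissue genes it was 4 and 9, 2 and 17, and 4 and 8. Centring on housekeeping genes put the median change of all genes at 0.15 in 3DHL, 0.21 in 3DHLK and 0.10 against HM and CS, and centring on the absent-tissue genes put it at -0.34, -0.42 and -0.14.

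**Figure D3:**
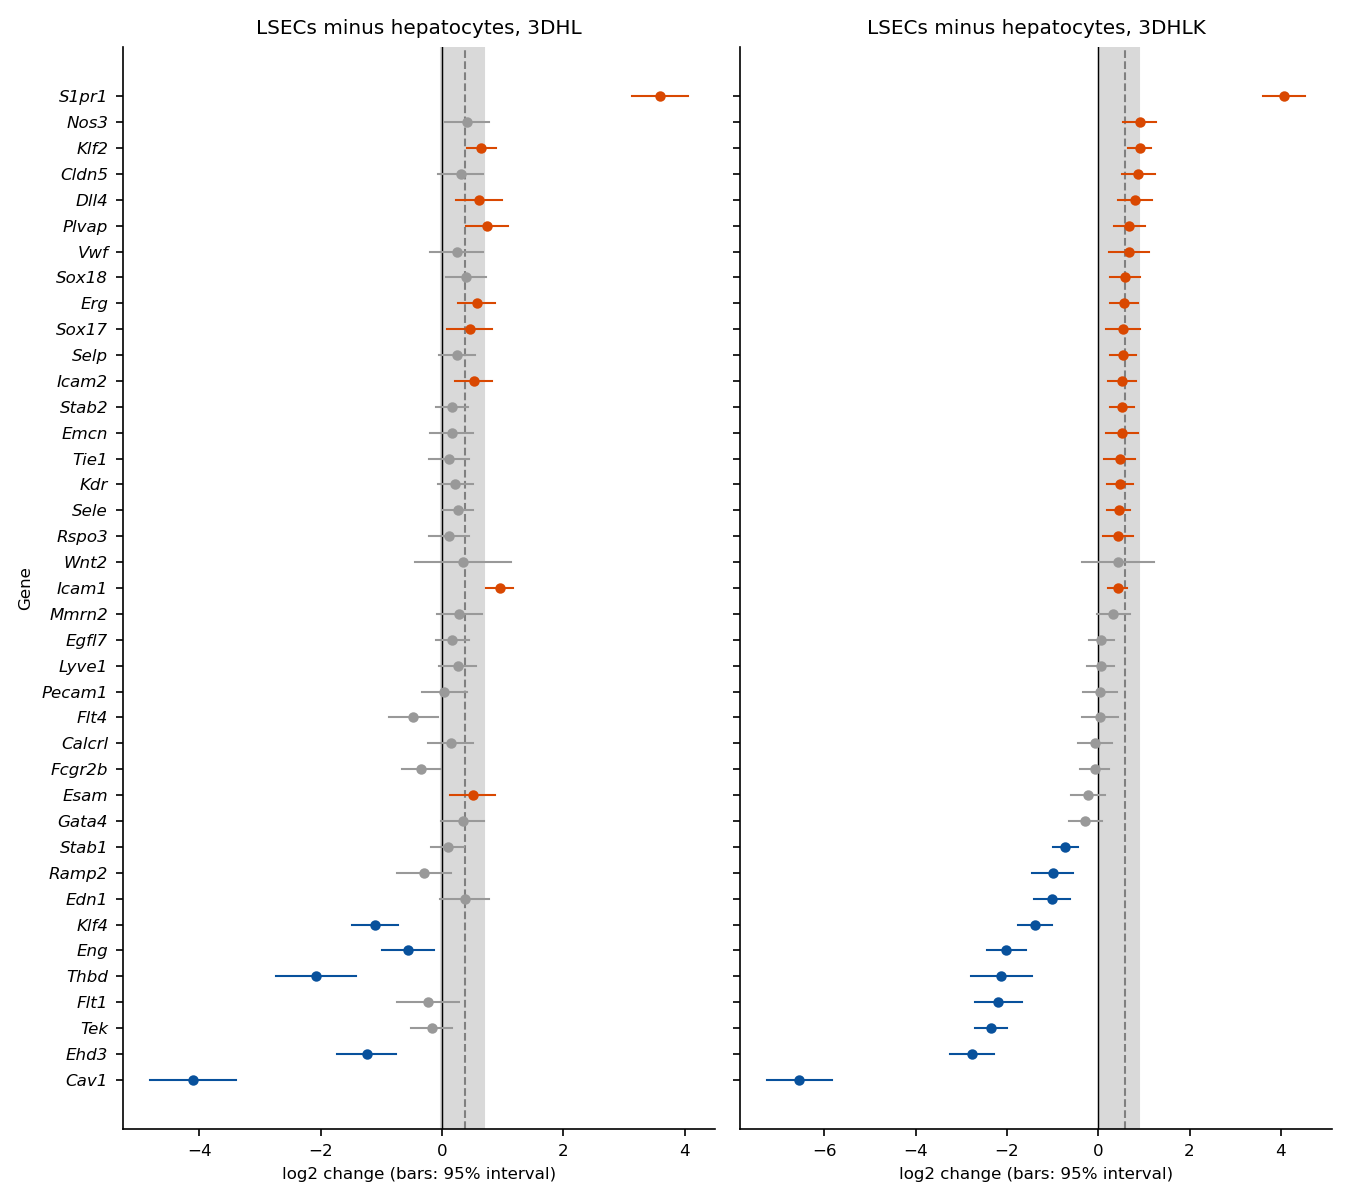
Log2 change of the 39 endothelial genes, LSECs minus hepatocytes of the same model, with 95% intervals, in 3DHL and 3DHLK. Orange genes were called higher, blue lower and grey neither, the grey band spans the 5th to 95th percentile of the 54 absent-tissue genes and the dashed line is their median. S1pr1 stands far right of the band and Cav1 far left in both models.

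Members called higher in LSECs in all 3 comparisons were S1pr1, Icam1, Klf2, Plvap, Erg and Icam2, 6 of 39 (15.4%), where 12.6% of all genes met the same condition. The count was 2 with arrays centred on the absent-tissue genes and 3 of the 16 members left by a filter on low values. It was 11 without the KC arrays of day 3, 10 without replicate 1 of them alone and 13 in a fit to the arrays compared. The share of all genes that met the condition was not counted in these settings. Against HM and CS apart, Icam1 was not called against HM (adjusted p = 0.0812) nor Icam2 against CS (adjusted p = 0.108). S1pr1 encodes the receptor for sphingosine-1-phosphate, a blood lipid that steadies endothelial junctions. It read 7.95, 8.27 and 8.23 in LSECs of 3DHL and 4.52, 4.72 and 4.42 in the hepatocytes beneath them. In 3DHLK it read 9.10, 9.44 and 9.17 in LSECs and 5.11, 5.36 and 5.01 in hepatocytes. The groups stood far apart in both models. The log2 change was 3.60 ± 0.22 (SE, adjusted p = 6.58e-11) in 3DHL and 4.07 ± 0.22 (SE, adjusted p = 3.11e-12) in 3DHLK. S1pr1 was near background in the hepatocytes of both models and in LSECs of 3DHL, so these are differences in signal, and no fold is given. S1pr1 was not confined to LSECs, since it read 6.20, 6.53 and 6.39 in HM, 7.29, 8.52 and 8.08 in CS and 9.98, 9.34 and 9.78 in KCs at day 3. CS overlapped LSECs of 3DHL, and 2 of the 3 KC arrays at day 3 lay above every LSEC array. Against CS alone the log2 change was 0.73 ± 0.19 (SE, adjusted p = 0.00673). A second probe set of S1pr1 showed none of this, with group means of 4.07 to 4.35 at day 12 and 6.45 in KCs at day 3.

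Icam1 encodes the adhesion molecule to which leukocytes bind. It read 12.19, 12.08 and 12.15 in LSECs of 3DHL and 11.08, 11.30 and 11.20 in hepatocytes of 3DHL. In 3DHLK it read 11.67, 11.79 and 11.65 and 11.25, 11.30 and 11.29. No LSEC array overlapped the hepatocytes of its model, though HM, with 11.67, 11.88 and 11.65, overlapped LSECs of 3DHLK. The log2 change was 0.95 ± 0.10 (SE, adjusted p = 5.34e-07) in 3DHL and 0.42 ± 0.10 (SE, adjusted p = 0.00156) in 3DHLK, where it turned to -0.10 once arrays were centred on the absent-tissue genes.

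Klf2, the transcription factor that blood flow induces in endothelium, read 9.53, 9.51 and 9.48 in LSECs of 3DHL and 9.55, 9.48 and 9.52 in LSECs of 3DHLK. In hepatocytes it read 8.98, 8.82 and 8.78 and 8.81, 8.55 and 8.48. The log2 change was 0.65 ± 0.12 (SE, adjusted p = 0.000228) and 0.91 ± 0.12 (SE, adjusted p = 1.71e-06), and the next probe set of Klf2 went the other way, with -0.95 and -1.59. Klf2 also read 9.59 and 9.59 in KCs of 3DHLK, as high as in LSECs. Klf2 has 5 probe sets, and the lower ones not given here had higher means in LSECs than in hepatocytes of both models. These means lay between 4.95 and 6.19. The direction of Klf2 within the models thus depended on the probe set, and only the second highest went the other way.

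The other 3 were near background in every group. Plvap, which encodes the protein of fenestral diaphragms, read 5.46, 6.04 and 5.71 and 5.69, 5.63 and 5.63 in the LSECs of 3DHL and 3DHLK and 4.93, 5.10 and 4.95 and 5.15, 4.70 and 5.05 in their hepatocytes, with log2 changes of 0.74 ± 0.17 (SE, adjusted p = 0.00165) and 0.68 ± 0.17 (SE, adjusted p = 0.00159). Erg, an ETS factor of endothelium, changed by 0.57 and 0.57 and reached 5.16 at most in the LSEC means, below the 5.76 of KCs of 3DHLK. Its values were 4.88, 5.04 and 4.87 and 5.15, 5.18 and 5.14 in LSECs and 4.29, 4.54 and 4.25 and 4.62, 4.46 and 4.69 in hepatocytes. Icam2, a leukocyte adhesion ligand of resting endothelium, changed by 0.52 and 0.53, from 5.19, 4.96 and 4.97 and 5.08, 5.12 and 5.08 in hepatocytes to 5.36, 5.43 and 5.89 and 5.37, 5.72 and 5.76 in LSECs. Under cyclic loess and under centring on the absent-tissue genes the calls of Erg and Icam2 in 3DHL and 3DHLK were lost. Such changes lay within the 5th to 95th percentile of the absent-tissue genes, except that of Plvap in 3DHL.

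Members called lower in LSECs in all 3 comparisons were Cav1, Thbd, Ehd3, Klf4 and Eng, 5 of 39 (12.8%), the same share as the 12.8% of all genes that met the condition. Against HM alone Eng and Ehd3 were not called, with 0.09 ± 0.18 (SE, adjusted p = 0.709) and -0.46 ± 0.20 (SE, adjusted p = 0.0684). Cav1 encodes caveolin-1, the coat protein of caveolae. It read 7.54, 7.69 and 7.81 in LSECs of 3DHL and 6.43, 5.21 and 4.80 in LSECs of 3DHLK. In hepatocytes it read 10.67, 11.26 and 10.76 in HM, 9.35, 8.01 and 9.21 in CS, 11.57, 11.76 and 12.06 in 3DHL and 12.01, 12.05 and 12.03 in 3DHLK. Every LSEC array lay below every hepatocyte array. The log2 change was -4.11 ± 0.34 (SE, adjusted p = 8.78e-09) in 3DHL and -6.55 ± 0.34 (SE, adjusted p = 1.97e-12) in 3DHLK. Cav1 was near background in both LSEC groups, so these too are differences in signal. Its other 2 probe sets were called lower in the same comparisons.

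Thbd encodes thrombomodulin, the surface cofactor that turns thrombin into an anticoagulant. It read 7.53, 6.97 and 6.65 and 7.55, 5.67 and 7.14 in the LSECs of 3DHL and 3DHLK, against 9.03, 9.20 and 9.15 and 8.66, 8.94 and 9.13 in hepatocytes. The log2 change was -2.08 ± 0.32 (SE, adjusted p = 3.8e-05) and -2.12 ± 0.32 (SE, adjusted p = 1.1e-05). Ehd3, an endocytic recycling protein, read 7.89, 7.65 and 7.93 and 7.85, 7.78 and 8.07 in LSECs, and 9.09, 9.11 and 8.97 and 10.48, 10.60 and 10.91 in hepatocytes. Its log2 change was -1.24 ± 0.23 (SE, adjusted p = 0.00034) and -2.77 ± 0.23 (SE, adjusted p = 3.18e-09). For Thbd and Ehd3 alike no LSEC array reached the hepatocytes of its model, and LSECs and KCs of 3DHLK were the groups in which both were near background.

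Klf4, a transcription factor related to Klf2, read 9.67, 9.94 and 9.62 and 9.66, 9.78 and 9.73 in LSECs and 10.44, 10.92 and 11.19 and 11.30, 10.97 and 11.06 in hepatocytes, with log2 changes of -1.11 ± 0.18 (SE, adjusted p = 8.57e-05) and -1.38 ± 0.18 (SE, adjusted p = 2.14e-06). Eng, which encodes the TGF-beta coreceptor endoglin, read 7.29, 7.501 and 7.40 and 7.70, 7.44 and 7.81 in LSECs. It read 8.05, 7.94 and 7.88 in hepatocytes of 3DHL and 9.32, 9.62 and 10.05 in hepatocytes of 3DHLK, and 9.89, 9.31 and 9.30 in KCs at day 3. HM, with 7.22, 7.80 and 7.29, overlapped the LSECs. By the ceiling of each array Eng was near background in the LSEC groups alone, but in HM only the array at 7.80 lay above its ceiling, of 7.55. Its log2 change was -0.56 ± 0.21 (SE, adjusted p = 0.0347) and -2.01 ± 0.21 (SE, adjusted p = 5.49e-08), and the call in 3DHL was lost in 8 of 32 other settings, among them each of the 6 that leave out an array of either group.

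The bases before the start sites are shown for members on either side of this contrast, S1pr1 and Icam1 among the higher and Cav1 and Eng among the lower. Each sequence is the 250 bases before the start in RefSeq on GRCr8, 5′ to 3′ on the gene's strand, at chr2:206314071-206314320 (minus strand) for S1pr1, chr8:27829595-27829844 (plus) for Icam1, chr4:46606288-46606537 (plus) for Cav1, of whose 2 listed starts 1 is shown, and chr3:36332029-36332278 (plus) for Eng. Capitals mark matches on either strand to 4 motifs, the ETS core GGAAG, the KLF box CACCC, the GATA core GATAA and the TATA box TATAAA, whose letters do not contain each other.
S1pr1: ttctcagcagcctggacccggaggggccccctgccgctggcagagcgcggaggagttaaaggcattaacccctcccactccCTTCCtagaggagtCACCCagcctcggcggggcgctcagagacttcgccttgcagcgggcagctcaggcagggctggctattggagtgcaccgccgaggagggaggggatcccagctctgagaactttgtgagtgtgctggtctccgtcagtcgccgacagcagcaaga
Icam1: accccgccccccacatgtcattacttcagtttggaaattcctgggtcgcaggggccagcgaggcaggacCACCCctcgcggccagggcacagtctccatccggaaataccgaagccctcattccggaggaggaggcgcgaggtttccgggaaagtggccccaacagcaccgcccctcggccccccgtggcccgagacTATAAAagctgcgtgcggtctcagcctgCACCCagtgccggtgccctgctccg
Cav1: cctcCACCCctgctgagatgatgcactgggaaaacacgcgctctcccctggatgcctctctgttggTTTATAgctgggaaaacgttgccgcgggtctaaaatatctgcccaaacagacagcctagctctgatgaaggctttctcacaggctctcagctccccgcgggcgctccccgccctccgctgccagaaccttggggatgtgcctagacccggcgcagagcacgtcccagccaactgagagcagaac
Eng: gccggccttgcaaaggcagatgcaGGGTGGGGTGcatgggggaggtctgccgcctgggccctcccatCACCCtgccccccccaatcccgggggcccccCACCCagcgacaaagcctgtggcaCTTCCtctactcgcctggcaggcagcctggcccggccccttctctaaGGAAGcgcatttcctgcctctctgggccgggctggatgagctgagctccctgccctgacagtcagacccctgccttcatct
S1pr1 holds 1 ETS core and 1 KLF box, Icam1 2 KLF boxes and a TATA box, Cav1 1 KLF box and a TATA box, and Eng 2 ETS cores and 4 KLF boxes. None of the 4 holds a GATA core. A promoter is listed for 25 of the 39 members. The ETS core is in 16 of these 25 (64.0%) and in 63.3% of all 27457 promoters, the KLF box in 19 (76.0%) and 49.4%, the GATA core in 9 (36.0%) and 23.2%, and the TATA box in 7 (28.0%) and 13.1%. A match is a stretch of letters and not a bound site, and the higher and lower members shown do not separate by these motifs. The 250 bases before the start of Ehd3, also among the lower and not shown, hold none of the 4 motifs.

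The remaining calls against hepatocytes were mostly small. In 3DHL the other 3 members called higher were the Notch ligand Dll4, the junction gene Esam and the transcription factor Sox17, by 0.61, 0.51 and 0.45 log2 units, and the call of Sox17 was lost in 19 of 32 other settings. In 3DHLK 13 more were called higher than the 6 above, from 0.44 for Rspo3 to 0.91 for Nos3. Besides these they were Sele, Tie1, Kdr, Emcn, Stab2, Selp, Sox17, Sox18, Vwf, Dll4 and Cldn5. They include the defining genes Stab2 with 0.52 ± 0.13 (SE, adjusted p = 0.00168), Vwf with 0.67 ± 0.21 (SE, adjusted p = 0.00919) and Kdr with 0.47 ± 0.14 (SE, adjusted p = 0.00546). Of the 13, only Nos3 lay above the 95th percentile of the absent-tissue genes, and all but Sox17 were near background in the LSECs and hepatocytes of both models. Of the surface genes, Cldn5, a tight junction protein, read 5.95, 5.90 and 6.07 in LSECs and 5.10, 5.02 and 5.15 in hepatocytes of 3DHLK. Emcn, a sialomucin of capillaries, read 5.09, 4.85 and 5.07 and 4.72, 4.37 and 4.37, and Tie1 5.19, 5.52 and 5.46 and 5.02, 4.70 and 5.06. The LSEC arrays lay above the hepatocyte arrays for each of these.

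The transcription factor Sox17 read 8.51, 8.45 and 8.44 in LSECs of 3DHL and 8.36, 8.50 and 8.63 in LSECs of 3DHLK, against 8.003, 8.05 and 7.995 and 8.17, 7.99 and 7.69 in hepatocytes. Its relative Sox18 read 5.47, 5.61 and 5.27 in LSECs and 4.87, 4.98 and 4.71 in hepatocytes of 3DHLK. No LSEC array of either overlapped the hepatocytes of its model where it was called. Dll4 read 8.05, 8.03 and 7.87 and 7.85, 8.17 and 8.11 in the LSEC groups and 7.35, 7.43 and 7.33 and 7.47, 7.16 and 7.09 in their hepatocytes. Rspo3 read 6.79, 7.12 and 7.09 in LSECs and 6.56, 6.52 and 6.61 in hepatocytes of 3DHLK. The LSEC arrays of these ligands lay above those of the hepatocytes. P-selectin, the product of Selp, holds rolling leukocytes, and Selp read 7.07, 7.12 and 7.27 in LSECs and 6.68, 6.84 and 6.32 in hepatocytes of 3DHLK. Sele, the gene of E-selectin, read 4.43, 4.35 and 3.98 and 4.03, 3.71 and 3.68 there. The arrays of Sele overlapped and those of Selp did not.

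In the hepatocytes of 3DHLK the vascular markers read 6.36, 5.96 and 5.76 for Nos3 and 5.11, 5.38 and 5.45 for Vwf, and Kdr read 5.87, 5.56 and 5.51, all under the LSEC arrays given above. A second probe set of Kdr went the other way, -1.68 ± 0.40 (SE, adjusted p = 0.00257) in 3DHL and -2.40 ± 0.40 (SE, adjusted p = 3.68e-05) in 3DHLK.

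Members called lower in 3DHLK alone were Tek, Flt1, Edn1, Ramp2 and Stab1. Tek encodes the angiopoietin receptor Tie2. It read 5.32, 5.50 and 5.33 in LSECs and 7.73, 7.52 and 7.94 in hepatocytes, a log2 change of -2.35 ± 0.16 (SE, adjusted p = 1.93e-10). Flt1, a VEGF receptor, read 7.29, 7.11 and 7.55 and 9.27, 9.50 and 9.75, a log2 change of -2.19 ± 0.25 (SE, adjusted p = 2.47e-07). Both stood apart from the hepatocyte arrays. Ramp2, a partner of the adrenomedullin receptor, read 6.68, 6.43 and 6.77 and 7.63, 7.42 and 7.82, a change of -1.001. Edn1, the gene of the vasoconstrictor endothelin-1, read 8.73, 8.33 and 8.22 and 8.96, 9.65 and 9.71, a change of -1.01. Stab1 changed by -0.72 ± 0.13 (SE, adjusted p = 0.000122). Tek, Flt1 and Stab1 were thus higher in the hepatocyte fraction of 3DHLK than in its LSEC fraction. In 3DHL, by contrast, none of the defining genes was called. Stab1, Stab2, Pecam1, Kdr, Lyve1, Nos3 and Vwf had log2 changes of 0.09, 0.16, 0.04, 0.22, 0.26, 0.40 and 0.24. Fcgr2b was not called either, with -0.34 ± 0.15 (SE, adjusted p = 0.0797) in 3DHL and -0.07 ± 0.15 (SE, adjusted p = 0.696) in 3DHLK.

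The comparison with HM and CS joins 2 cultures that differ in these genes. LSECs of both models against HM gave 11 members higher and 5 lower (47.8% of all genes called), against CS 7 and 6 (27.5%), and CS against HM 7 and 5 (21.8%). The log2 change of Fcgr2b was 1.06 ± 0.11 (SE, adjusted p = 1.09e-07) against the mean of HM and CS, 2.08 ± 0.13 (SE, adjusted p = 5.91e-11) against HM alone and 0.03 ± 0.13 (SE, adjusted p = 0.874) against CS alone. CS exceeded HM in Fcgr2b by 2.05 ± 0.15 (SE, adjusted p = 3.46e-09). The distance of LSECs from hepatocytes without LSECs thus lay in the low values of HM. CS also exceeded HM in S1pr1 by 1.59 ± 0.22 (SE, adjusted p = 1.54e-05) and in Eng by 0.998 ± 0.21 (SE, adjusted p = 0.00109), and the change of Cav1 from HM to CS was -2.04 ± 0.34 (SE, adjusted p = 0.000145). Against the mean of HM and CS, Egfl7, Gata4, Cldn5, Nos3, Sele, Sox18 and Vwf were also called higher in LSECs, and Flt1 lower. Members called in none of the hepatocyte comparisons were Calcrl, Flt4, Lyve1, Mmrn2, Pecam1 and Wnt2, of which the matrix protein Mmrn2 was called in no comparison at all. Flt4, the lymphatic VEGF receptor, was called against HM alone, -0.74 ± 0.17 (SE, adjusted p = 0.00108) in LSECs and -0.93 ± 0.19 (SE, adjusted p = 0.00108) in CS.

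Other cell types' markers moved with the contrast. The counts below stand beside 18.5% of all genes called higher and 21.9% lower in 3DHL, and 34.7 and 25.7% in 3DHLK. The 19 stellate cell and fibroblast markers averaged 6.79 and 6.70 in the LSECs of 3DHL and 3DHLK, and 8.20 and 9.94 in their hepatocytes. Of these 19, 9 were called lower in LSECs of 3DHL and 16 in LSECs of 3DHLK. Sparc, a matrix protein of stellate cells, changed by -5.60 ± 0.52 (SE, adjusted p = 5e-08) and -6.89 ± 0.52 (SE, adjusted p = 5.78e-10), wider than any member. The collagen gene Col1a2 changed by -4.20 ± 0.73 (SE, adjusted p = 0.000149) in 3DHL and Col3a1 by -6.32 ± 0.80 (SE, adjusted p = 1.17e-06) in 3DHLK, and Ngfr, a neurotrophin receptor of stellate cells, was the 1 marker called higher, with 0.61 in 3DHLK. The 6 cholangiocyte markers averaged 6.92 and 7.30 in LSECs and 8.47 and 9.67 in hepatocytes, with 4 and 5 of 6 called lower in LSECs, led by Epcam and Krt19 in 3DHL (-2.12 and -2.01) and Aqp1 and Spp1 in 3DHLK (-6.20 and -3.72).

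Of the 19 macrophage markers, 3 were called higher and 4 lower in LSECs of 3DHL, and 3 and 13 in LSECs of 3DHLK, with medians of -0.08 and -0.98. The widest falls were those of Fcer1g and Mrc1, -1.41 and -0.88 in 3DHL and -3.19 and -3.06 in 3DHLK. The widest rises were those of Cd14 and Clec4f, 0.57 and 0.41 in 3DHL and 1.37 and 0.83 in 3DHLK. Of the 27 hepatocyte markers, 4 were called higher and 2 lower in LSECs of 3DHL, and 11 and 2 in LSECs of 3DHLK, with medians of 0.22 and 0.36. In 3DHL Cyp2e1 and Cps1 changed by 2.33 and 1.57, and Rbp4 and Apoa2 by -0.63 and -0.59. In 3DHLK Tat and Cps1 changed by 1.83 and 1.66, and Cyp2e1 and Krt8 by -0.64 and -0.58. Of all genes, 18.5% were called higher and 21.9% lower in 3DHL, and 34.7 and 25.7% in 3DHLK. The share of hepatocyte markers called higher was thus no larger than that of all genes in 3DHL and somewhat larger in 3DHLK. Their share called lower was smaller than that of all genes in both.

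Of 13 lymphocyte markers, 6 were called higher and none lower in LSECs of 3DHL, and 11 and 1 in LSECs of 3DHLK. Cd79b and Cd2 led in 3DHL with 0.46 and 0.44, and Klrb1a and Cd3d in 3DHLK with 0.91 and 0.89, where Cd4 changed by -0.35. Of the absent-tissue genes, Npy and Myl7 led in 3DHL with 2.12 and 0.78, and Prm1 and Nphs1 in 3DHLK with 1.11 and 0.98. The 1 called lower was Cryba1 in 3DHL, with -1.17, and Scgb1a1 in 3DHLK, with -1.04. Of 14 housekeeping genes, 0 were called higher and 2 lower in 3DHL, and 1 and 4 in 3DHLK. The part of these lists in the members' changes was not tested.

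LSECs of 3DHLK were compared with LSECs of 3DHL, which asks whether the LSEC fraction differs where KCs are present. S1pr1 and Fcgr2b were called higher and Cav1, Esam, Edn1 and Icam1 lower, so 6 of 39 (15.4%) were called where 7.47% of all genes were (3.58% higher and 3.89% lower). Fcgr2b, Cav1 and Esam were near background in both LSEC groups and S1pr1 in LSECs of 3DHL, so theirs are differences in signal. Both rises and the falls of Cav1, Esam and Edn1 kept their call in every other setting with the same probe set, and that of Icam1 was lost in 3 of 32. S1pr1 changed by 1.08 ± 0.22 (SE, adjusted p = 0.00279), and its second probe set by -0.10. Fcgr2b changed by 0.96 ± 0.15 (SE, adjusted p = 0.000301), with no overlap between the groups.

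Cav1 fell further in LSECs when KCs were present, by -2.20 ± 0.34 (SE, adjusted p = 0.000225), though the 3 arrays of 3DHLK themselves ranged from 4.80 to 6.43. Esam, an adhesion molecule of endothelial junctions, read 7.83, 7.60 and 7.39 in 3DHL and 6.74, 6.45 and 6.29 in 3DHLK, a log2 change of -1.11 ± 0.18 (SE, adjusted p = 0.000327). Edn1 read 9.47, 9.29 and 9.54 and 8.73, 8.33 and 8.22, a change of -1.005 ± 0.19 (SE, adjusted p = 0.00198). Icam1 changed by -0.44 ± 0.10 (SE, adjusted p = 0.0102). None of these groups overlapped. Stab1, Stab2, Lyve1, Pecam1, Kdr, Nos3 and Vwf were not called, with 0.11 for Stab1, 0.13 for Stab2, 0.16 for Lyve1, 0.20 for Pecam1, 0.04 for Kdr, 0.27 for Nos3 and 0.18 for Vwf. Of the macrophage markers 2 of 19 were called higher in LSECs of 3DHLK and none lower.

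Hepatocytes also differed between the models in these genes. In hepatocytes of 3DHLK 7 of 39 members (17.9%) were called higher than in hepatocytes of 3DHL and none lower, where 11.5% of all genes were called (7.72% higher and 3.76% lower). They were Flt1, Tek, Eng, Ehd3, Stab1, Fcgr2b and Gata4. Stab1 and Fcgr2b were near background in hepatocytes of both models, and Tek and Flt1 in those of 3DHL. Tek rose from 5.59, 5.46 and 5.28 to 7.73, 7.52 and 7.94, a log2 change of 2.29 ± 0.16 (SE, adjusted p = 1.49e-09). Flt1 rose from 7.09, 7.33 and 7.18 to 9.27, 9.50 and 9.75, a change of 2.31 ± 0.25 (SE, adjusted p = 5.39e-07). Eng changed by 1.71 ± 0.21 (SE, adjusted p = 2.67e-06), Ehd3 by 1.61 ± 0.23 (SE, adjusted p = 3.46e-05), Stab1 by 0.92 ± 0.13 (SE, adjusted p = 3.42e-05), Fcgr2b by 0.69 ± 0.15 (SE, adjusted p = 0.00326) and the transcription factor Gata4 by 0.63 ± 0.17 (SE, adjusted p = 0.0186). For the first 6 of these the call held in every other setting with the same probe set. The absent-tissue genes did not rise there, with a median of -0.10 and 1 of 54 called higher.

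Markers of other cell types rose in the same hepatocyte arrays. Of 19 stellate cell and fibroblast markers 12 were called higher in 3DHLK and none lower, with a median log2 change of 2.11. Of 19 macrophage markers 12 were called higher and none lower, and their mean went from 6.78 to 7.79. The part of these cells in the rise of Tek, Flt1, Eng, Ehd3, Stab1 and Fcgr2b was not tested. Cav1, by contrast, changed by 0.23 log2 units in hepatocytes and was not called.

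Whether LSECs and hepatocytes changed differently between the models was tested by the difference of their changes. It was called for 8 of 39 members (20.5%), all with the LSEC change below the hepatocyte change, where 10.3% of all genes were called (3.51% higher and 6.81% lower). The 8 were Tek, Flt1, Eng, Ehd3, Stab1, Edn1, Icam1 and Cav1. Of these, Tek, Flt1, Eng, Ehd3 and Stab1 had risen in hepatocytes, while Cav1, Edn1 and Icam1 had fallen in LSECs. All but Edn1 and Icam1 were near background in both LSEC groups. For Fcgr2b, called higher in both cell types, the difference was 0.27 ± 0.22 (SE, adjusted p = 0.474).

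**Figure D4:**
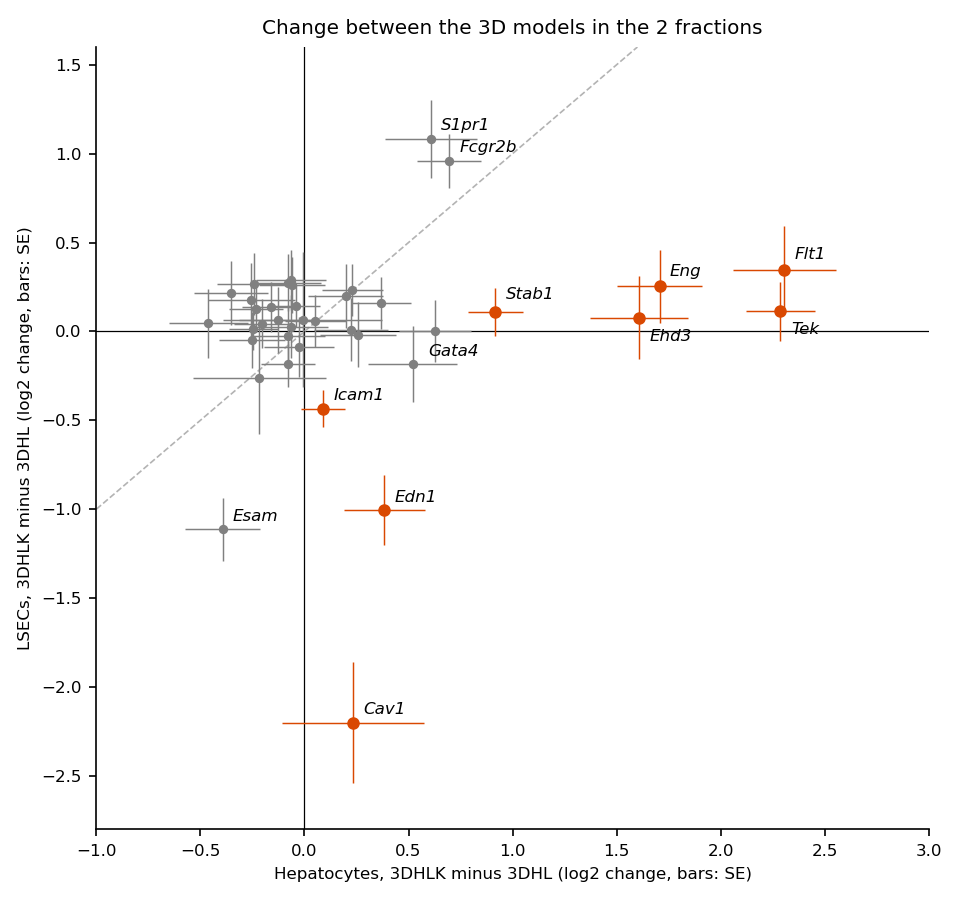
Log2 change from 3DHL to 3DHLK of the 39 endothelial genes in hepatocytes (x axis) and LSECs (y axis), with bars for the standard error and a dashed line of equal change. Orange genes, in which the difference of the changes was called, all lie under the line, with Tek and Flt1 far to the right and Cav1 far down.

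LSECs of 3DHLK were also set against the KC fraction of the same model. Of the 39 members, 11 were called lower and 1 higher in LSECs than in KCs of 3DHLK, so 30.8% were called where 15.1% of all genes were (9.73% higher and 5.35% lower). S1pr1 was the member above KCs, with 6.70 and 7.03 in KCs and a log2 change of 2.37 ± 0.25 (SE, adjusted p = 3.8e-07). It was also the member that was higher in LSECs in all 3 hepatocyte comparisons and above these KCs, 1 of 39 (2.56%) where 1.88% of all genes were. Lyve1 was lower by the most, with -2.06 ± 0.16 (SE, adjusted p = 7.6e-09), and its second probe set changed by -2.73 ± 0.26 (SE, adjusted p = 1.42e-07). The others were Cav1, Esam, Edn1, Tek, Tie1, Eng, Fcgr2b, Pecam1, Erg and Egfl7, from -1.29 for Cav1 to -0.44 for Egfl7. Of these 11, all but Edn1, Eng and Egfl7 were near background in both fractions. Sox17, a transcription factor of arterial endothelium, was not called, with means of 8.50 in LSECs and 8.56 in KCs of 3DHLK. Its second probe set had 7.16 and 6.93. Its lowest probe set, with 3.57 and 4.85, changed by -1.29 ± 0.13 (SE, adjusted p = 5.11e-07).

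With 2 KC arrays these calls leaned on each of them. The count fell from 12 to 6 without either KC array, when the lone array is assumed to vary as the others do, and centring on the absent-tissue genes left 1 higher and 4 lower. The calls of S1pr1, Lyve1, Esam and Tek held in every setting with the same probe set. Macrophage markers did not set the KC fraction apart, at 6.96 in KCs and 6.90 in LSECs of 3DHLK, with 1 of 19 called each way, against 12.18 in KCs at day 3.

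KCs at day 3 held several genes of the set that were near background in the day 12 groups. Against them, 12 members were called higher and 17 lower in LSECs, 74.4% where 73.8% of all genes were called (48% higher and 25.8% lower). Calcrl, the adrenomedullin and CGRP receptor, read 9.64, 8.56 and 8.75 in KCs at day 3 and no more than 4.72 on any day 12 array. Tie1, an endothelial receptor kinase, read 7.61, 7.35 and 8.25 in KCs at day 3 and 5.16, 5.09 and 5.11 in LSECs of 3DHL. Pecam1 read 8.82, 7.95 and 8.16 there. Wnt2, a ligand that sinusoidal cells send to hepatocytes, read 7.82, 10.54 and 10.08, with 1 array apart from the other two. The KCs at day 3 were thus above all LSEC arrays in these genes. The log2 change in LSECs was -4.58 ± 0.15 (SE, adjusted p = 3.63e-17) for Calcrl, -3.69 ± 0.12 (SE, adjusted p = 1.1e-17) for Stab1, -3.04 ± 0.33 (SE, adjusted p = 2.97e-08) for Wnt2, -3.02 ± 0.28 (SE, adjusted p = 2.01e-09) for Thbd, -2.48 ± 0.14 (SE, adjusted p = 3.7e-13) for Tie1 and -2.22 ± 0.16 (SE, adjusted p = 2.06e-11) for Pecam1. Higher in LSECs were Edn1 by 1.67, Gata4 by 1.56, Sox17 by 1.16 and Egfl7, a matrix-bound endothelial regulator, by 0.95 log2 units. A second probe set of Wnt2 changed by 0.0787.

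**Figure D5:**
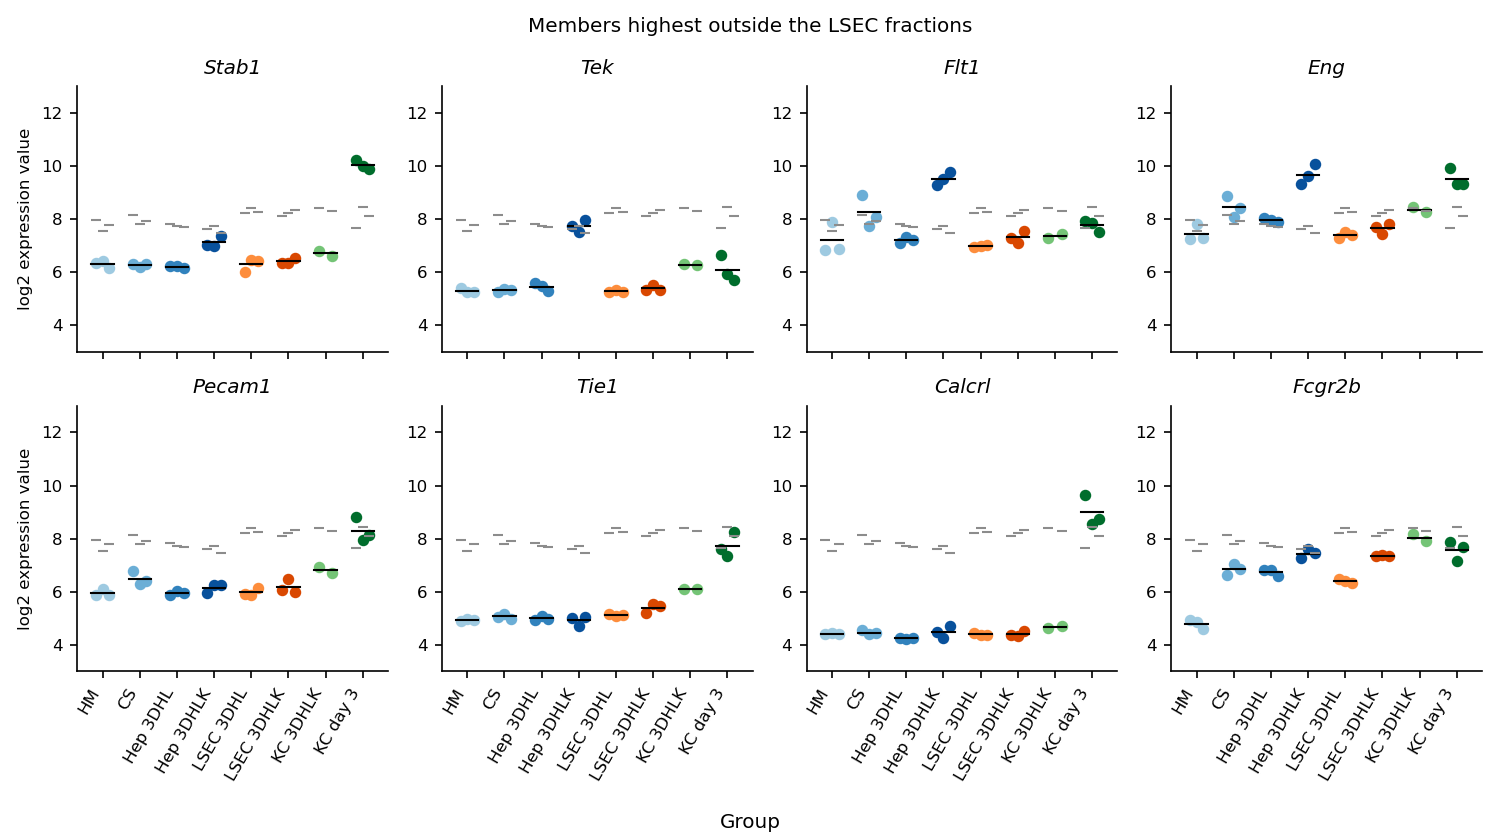
Log2 values of 8 endothelial genes whose highest level lay outside the LSEC groups, with a dot for each array, a black line for the group mean and a grey tick for each array's 95th percentile of the 54 absent-tissue genes. Tek, Flt1 and Eng stood up in hepatocytes of 3DHLK, and Stab1, Pecam1, Tie1 and Calcrl in KCs at day 3.

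Between the KC groups 10 members were called higher in KCs of 3DHLK and 10 lower, 51.3% where 65.3% of all genes were called (44.5% higher and 20.8% lower). Calcrl changed by -4.31 ± 0.20 (SE, adjusted p = 2.63e-14), Stab1 by -3.32 ± 0.15 (SE, adjusted p = 1.72e-14) and S1pr1 by -2.84 ± 0.25 (SE, adjusted p = 1.37e-09). Edn1 changed by 2.09, Gata4 by 1.46 and Egfl7 by 1.30. On these probe sets the 3 genes were lower in KCs at day 3 than in any other group. The other probe sets of Gata4 and Egfl7 did not show this, with 7.82 and 7.86 in KCs at day 3 and 7.28 and 7.51 in hepatocytes of 3DHL. Hepatocyte markers went the same way, with 26 of 27 called higher in KCs of 3DHLK and none lower, and all 19 macrophage markers were called lower there. The part of this in the members' changes was not tested. Centring on the absent-tissue genes gave 8 members higher and 16 lower, and in the comparison of LSECs with KCs at day 3 it gave 9 and 20.

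A wider list of 50 other endothelial genes, 45 of them measured, was read in the same way. In LSECs against hepatocytes of 3DHL 7 were called higher and 8 lower, where 18.5 and 21.9% of all genes were, with a median of 0.21. In 3DHLK 18 were called higher and 17 lower, where 34.7 and 25.7% of all genes were, with a median of 0.09. Vegfa, the growth factor that hepatocytes send to endothelium, changed by 1.18 ± 0.12 (SE, adjusted p = 2.22e-07) in 3DHL and 1.13 in 3DHLK. Nrp2, a VEGF coreceptor, changed by 0.75 in 3DHL, and Prox1, a transcription factor of hepatocytes and lymphatic endothelium, by 1.35 ± 0.18 (SE, adjusted p = 2.33e-06) in 3DHLK. The widest falls in 3DHLK were those of Dkk3, with -4.04 ± 0.40 (SE, adjusted p = 3.24e-08), and of Gja5, an arterial connexin, with -3.46 ± 0.29 (SE, adjusted p = 2.18e-09). In 3DHL they were those of Tfpi, an inhibitor of coagulation, with -1.21 ± 0.15 (SE, adjusted p = 4.03e-06), and of the receptor Notch1, with -1.11 ± 0.14 (SE, adjusted p = 4.74e-06).

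Between LSECs of 3DHLK and 3DHL 2 of the 45 were called higher and 5 lower, where 3.58 and 3.89% of all genes were. Clec14a, a surface lectin of endothelium, changed by 1.33 ± 0.34 (SE, adjusted p = 0.0165), and Jag1, a Notch ligand, by -1.20 ± 0.20 (SE, adjusted p = 0.00056). Hepatocytes of 3DHLK against 3DHL had 13 of the 45 higher and 3 lower, where 7.72 and 3.76% of all genes were, among them Gja5 with 3.53 ± 0.29 (SE, adjusted p = 8.55e-09), Dkk3 with 3.33 ± 0.40 (SE, adjusted p = 2.43e-06) and Mrc1, the mannose receptor of sinusoidal cells and macrophages, with 2.62 ± 0.31 (SE, adjusted p = 2.32e-06). Against KCs of 3DHLK 4 were called higher and 9 lower in LSECs, where 9.73 and 5.35% of all genes were. Against KCs at day 3 11 were called higher and 23 lower, where 48 and 25.8% of all genes were.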

How the data were processed

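The 23 samples were each hybridised to an Affymetrix rat genome array. Per the labels and the methods, RNA was extracted with RNeasy and amplified, and the authors checked the arrays with Simpleaffy and processed them with RMA in R. The deposited values are log2 expression: RMA corrects for background, gives all arrays 1 distribution and sums the probes of a set. The sources used here do not give its version. There are no detection calls, and precision is limited by how few arrays there are. The 20832 probe sets that name 1 gene in the platform annotation were used, of 31099 in all.

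Groups came from the sample labels. limma 3.58.1 in R 4.3.3 was fitted to the 8 group means (lmFit, contrasts, eBayes, two-sided), with Benjamini-Hochberg adjustment over 14218 genes at 0.05, and was tested on simulated data. Other probe sets of a gene were adjusted over all probe sets of 1 gene. The genes given by array are those called between LSECs and hepatocytes or between the LSEC groups, with 7 defining genes, and of every other list but the housekeeping genes, given by count, the 2 largest called changes each way in LSECs against hepatocytes. The plot of all members shows every array. The members, the gene lists and these rules were chosen with earlier results of these data known. Wnt2, Calcrl, Tie1 and the genes named from the wider endothelial list between the LSEC and hepatocyte groups were picked after their values were seen. Promoter sequences are RefSeq's on GRCr8. Figures were drawn with matplotlib 3.10.9 and tables with pandas 2.3.3 in Python 3.11.15. The alternatives were a fit to the arrays compared, the replicate block, the mean of probe sets, cyclic loess, a filter that drops genes whose mean is under the 30th percentile, centring on housekeeping genes, a trended and robust eBayes, a fit without KCs at day 3, the 90th percentile of the absent-tissue genes or the 30th of all genes as the limit for background, and leaving out each array in turn. Centring on absent-tissue genes, the second highest probe set, and HM and CS taken apart were added after seeing the data.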

Additional observations from a re-analysis of the deposited data

Results flagged for a closer look

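For 8 endothelial genes the change from 3DHL to 3DHLK differed between LSECs and hepatocytes in limma's test of the difference. Each value is the LSEC change minus the hepatocyte change, in log2 units. For Tek it was -2.18 (adjusted p = 1.49e-06), with hepatocyte values of 3DHL under those of 3DHLK on all 3 arrays of each and LSEC values that overlapped. Flt1 gave -1.96 (adjusted p = 0.000618), Ehd3 -1.53 (adjusted p = 0.00379), Eng -1.45 (adjusted p = 0.00188) and Stab1 -0.81 (adjusted p = 0.00698), and all 4 were called higher in hepatocytes of 3DHLK and not called in LSECs. Cav1 gave -2.43 (adjusted p = 0.00175), Edn1 -1.39 (adjusted p = 0.00175) and Icam1 -0.52 (adjusted p = 0.0235), and these 3 were called lower in LSECs of 3DHLK and not called in hepatocytes. Of the 8 genes, all but Edn1 and Icam1 were near background in both LSEC groups. Groups of 3 or 2 arrays are too small for a test of single arrays that stand apart.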

How the results depend on the processing

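Counts below are of called members, over 39 unless stated. The share of all genes called is not given beside them, so they do not tell whether the members moved apart from other genes. The share of all genes enriched was not counted in these settings. A fit to the arrays compared gave 25 in LSECs against hepatocytes of 3DHL and 13 enriched in LSECs. A filter on low values left 16 members, and with it the counts were 12 in LSECs against hepatocytes of 3DHLK, 11 against HM and CS, 6 against KCs of 3DHLK, 14 against KCs at day 3, 11 between the KC groups, 4 in hepatocytes between the models and 3 enriched. With cyclic loess the count was 19 in LSECs against hepatocytes of 3DHLK. Without the KC arrays of day 3, 11 members were enriched. Centring on the absent-tissue genes gave 19 in 3DHLK, 12 against HM and CS, 5 against KCs of 3DHLK and 2 enriched. With the 30th percentile of all genes as the limit, 20 members were near background in both LSEC groups, against 27 with the 90th percentile of the absent-tissue genes and 35 with the mean of probe sets.

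Leaving out each array in turn gave 11 to 19 called members in LSECs against hepatocytes of 3DHL, 26 to 30 in 3DHLK, 15 to 22 against HM and CS, 5 to 6 between the LSEC groups, 6 to 14 against KCs of 3DHLK, 24 to 29 against KCs at day 3, 20 to 24 between the KC groups, 6 to 8 in hepatocytes between the models and 7 to 9 for the difference of changes. The lowest count against KCs of 3DHLK came without either of the 2 KC arrays, with the lone array assumed to vary like the other groups. Between 5 and 10 members were enriched, 10 of them without replicate 1 of KCs at day 3, and 31 near background each time. Of 8073 values of single members, 7868 kept their direction and side of the threshold, 153 lost a call, 52 gained one and 0 turned.

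With the replicate number as a block the counts were 14, 29, 20, 6, 9, 28, 21, 7 and 8 in the same order of comparisons, and 7 enriched. Of 63 pairs of arrays with the same number, 6 had deviations from the group means that correlated above 0.1, in a range from -0.36 to 0.34. With so few arrays in a group this cannot tell whether the numbers pair the arrays, and the labels do not say.

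Single members that turned direction were as follows, and the cause was not tested. With the mean of probe sets, Kdr gave -0.73 in 3DHL, -0.97 in 3DHLK and -0.75 against KCs of 3DHLK, Gata4 0.31 in 3DHLK, Klf2 -0.12 against HM and CS, and Icam2 -1.28 against KCs at day 3 and -1.19 between the KC groups. With cyclic loess, Klf4 gave -0.0893 against KCs at day 3. Centring on the absent-tissue genes gave in 3DHLK -0.0055 for Stab2, -0.47 for Egfl7, -0.058 for Kdr, -0.49 for Flt4, -0.058 for Tie1, -0.48 for Lyve1, -0.011 for Emcn, -0.10 for Icam1, -0.0909 for Rspo3 and -0.0831 for Sele. With the second highest probe set, Flt1 gave 0.44 in 3DHL and 0.18 against HM and CS, and Kdr -1.68 in 3DHL, -2.40 in 3DHLK and -1.55 against KCs of 3DHLK. Klf2 gave -0.95 in 3DHL, -1.59 in 3DHLK, -1.35 against HM and CS, -0.63 against KCs at day 3 and -0.22 between the KC groups, and Gata4 0.91 in 3DHLK. S1pr1 gave -0.10 between the LSEC groups and -0.0551 against KCs of 3DHLK. Against KCs at day 3, Dll4 gave -0.15, Icam2 -2.88, Rspo3 0.29 and Wnt2 0.0787, and between the KC groups Erg 0.24, Icam2 -2.57 and Wnt2 0.56.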
